A study of Mus musculus with 4 samples.

Results

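CpG islands (CGIs) that lie in the last exons of protein-coding genes were followed through the first 3 weeks of life in the mouse colon. A CGI was taken as a stretch of merged 500-bp windows with at least 25 CpGs each, and the autosomes were cut into 200-bp bins. A bin was a member where at least 100 bp of it lay in a CGI and its centre lay in the last exon of a protein-coding gene with several exons. Bins in any 5′ region, which ran from 1 kb upstream of a gene to the end of its first exon, were left out, and at least 10 calls were needed in each library, which 20 further bins lacked. A call is 1 read of 1 CpG as methylated or unmethylated. This gave 4944 bins, which are 0.121% of 4076371 bins tested and 3.28% of 150755 CGI bins. They lay in 1362 CGIs and in the last exons of 1343 genes, or 7.25% of 18530 autosomal genes with several exons. A gene had a median of 3 member bins (range 1 to 29) and 169 genes had 1. Of the 4944 bins, 40 lay in the last exons of 2 or more genes at once, and 3 gene symbols stand under 2 gene IDs each.

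Whole-genome bisulfite sequencing was done on 4 groups of sorted colonic epithelial cells, with 1 library per group. Intestinal stem cells (ISCs) and differentiated epithelial cells were each taken at postnatal day 0 (P0) and at postnatal day 21 (P21), around weaning. The labels give the strain as C57. Mice were offspring of the Lgr5-EGFP-CreER knock-in line, on a C57BL/6 J background, and wild-type C57 mice. In this line sequences of the stem cell gene Lgr5 drive EGFP and an inducible Cre. ISCs were the Lgr5-EGFP+ cells of the sort. Differentiated cells were EpCAM+ cells without EGFP signal, so that this gate is set by the reporter and holds every epithelial cell in which EGFP was not seen. Cells of several mice were pooled for each library. At P21 the pooled offspring were carriers of the reporter. At P0 whole litters were pooled, with no statement that every pup was a carrier, so that the cells without EGFP at P0 may include those of pups without the knock-in. No comparison below therefore has a replicate: intervals and tests cover counting error between libraries, not the spread between animals. They also take each call as independent, which calls on 1 read are not.

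CpG methylation is laid down by the DNA methyltransferases and read by proteins that bind methylated cytosine. CGIs at promoters are mostly unmethylated, and their methylation goes with silencing. CGIs inside genes behave differently: they are often methylated, and gene body methylation is common in transcribed genes. In the intestine, stem cells at the crypt base renew the epithelium, and the crypts of the mouse are formed during the weeks after birth. The study asked whether methylation is still maturing in this window, and changes between P21 and P0 within a population are called mDMRs here (maturation-associated differentially methylated regions). Changes between differentiated cells and ISCs of the same age are called dDMRs.

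The sequences of 3 coding bins show what such an island looks like where methylation rose by about 50 points in both populations. For each gene the bin is the one with the largest called change in ISCs, among bins wholly in coding sequence of the last exon. Each is printed 5′ to 3′ on the strand of its gene, with each CpG in capitals. AI464131, a predicted glycosidase gene that the study calls Net37, is shown at chr4:41445001-41445200 (mm9, minus strand), with 17 CpGs. Mycn, a transcription factor of the MYC family, is shown at chr12:12944201-12944400 (mm9, minus strand), with 10 CpGs. Runx1, a transcription factor of blood cell development, is shown at chr16:92606001-92606200 (mm9, minus strand), with 21 CpGs.
AI464131: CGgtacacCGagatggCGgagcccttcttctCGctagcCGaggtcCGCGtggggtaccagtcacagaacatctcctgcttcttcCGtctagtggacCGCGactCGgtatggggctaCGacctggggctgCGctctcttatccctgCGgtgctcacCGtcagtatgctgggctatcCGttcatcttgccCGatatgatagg
Mycn: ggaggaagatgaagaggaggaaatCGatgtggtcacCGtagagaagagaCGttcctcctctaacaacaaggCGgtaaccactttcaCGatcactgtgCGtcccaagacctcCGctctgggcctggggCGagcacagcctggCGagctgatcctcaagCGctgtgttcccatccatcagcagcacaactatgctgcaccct
Runx1: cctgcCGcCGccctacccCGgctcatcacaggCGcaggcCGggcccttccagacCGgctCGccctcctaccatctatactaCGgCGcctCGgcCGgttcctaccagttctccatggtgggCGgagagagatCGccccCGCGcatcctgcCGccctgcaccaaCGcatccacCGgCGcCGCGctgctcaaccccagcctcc

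In ISCs the AI464131 bin was methylated at 10.7% at P0 and 69.2% at P21, from 169 and 334 calls. In differentiated cells its level was 17.98% at P0 and 67.03% at P21. The gain was not carried by a few CpGs: each of the 17 was higher at P21 than at P0 in both populations, with levels of single CpGs between 26.3% and 91.3% in ISCs at P21. The Mycn bin went from 31.3% to 83.8% in ISCs and from 31.3% to 81.0% in differentiated cells, and each of its 10 CpGs was higher at P21. The Runx1 bin started from 0 of 165 calls in ISCs at P0, with a 95% Wilson limit of 2.28%, and from 3.26% in differentiated cells. At P21 it was methylated at 54.8% in ISCs and 51.6% in differentiated cells. Here 13 CpGs had 5 or more calls in every library, and all of them were higher at P21 in both populations. In ISCs the adjusted p of the 3 bins was 4.23e-34, 1.93e-13 and 2.17e-35 (Fisher's exact test of the 2 libraries). Genes and bins were chosen by this change, so the p-values and the counts of CpGs describe them and are no separate support.

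A further sequence is of Hoxd3, a homeobox gene of the HoxD cluster, at chr2:74584601-74584800 (mm9, plus strand), with 22 CpGs. It is shown because the change with age differed between the populations in this gene, and its bin was chosen as above, by the change in ISCs.
Hoxd3: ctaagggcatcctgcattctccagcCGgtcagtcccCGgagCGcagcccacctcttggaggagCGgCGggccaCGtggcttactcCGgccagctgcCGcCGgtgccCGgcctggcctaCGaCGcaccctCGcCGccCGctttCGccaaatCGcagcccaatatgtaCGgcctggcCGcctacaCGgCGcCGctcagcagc

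This Hoxd3 bin was methylated at 20.6% in ISCs at P0 and 59.8% at P21, and at 30.4% and 43.8% in differentiated cells. Of its 22 CpGs, 20 were higher at P21 in ISCs and 19 in differentiated cells. Both populations were higher at P21, and the change in ISCs was the larger by 25.8 points, a difference of changes that was itself called. The gene was named for such a difference, so this call is no separate support.

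The files held between 1023427645 and 1188114423 calls per library. Member bins were covered by a median of 181 (P0) and 207 (P21) calls in the ISC libraries and of 499 (P0) and 391.5 (P21) calls in those of differentiated cells. Depth was thus unequal, and it was above that of all tested bins, whose medians lay between 55 and 81 calls. The 5′ regions of the epithelial genes Epcam, Cdh1, Vil1 and Cdx2 were methylated at 0 to 14.7% in the 4 libraries, and that of Lgr5 at 1.70 to 6.51%. Those of the leukocyte genes Ptprc and Cd3e and of the endothelial gene Pecam1 were methylated at 73.1 to 88.6% in all of them. Expression data were not used here, so these are levels of methylation only. In bulk DNA a changed level and a changed mixture of cells cannot be told apart.

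Last-exon CGIs were split between unmethylated and methylated bins. Their mean level was 46.9% (P0) and 49.3% (P21) in ISCs, and 46.5% (P0) and 48.8% (P21) in differentiated cells. Means say little about a single bin here: at P0 in ISCs 1808 bins (36.6%) were below 10%, 1263 (25.5%) were at 90% or above, and 1054 (21.3%) lay between 20% and 80%. At P21 the same classes held 1712 (34.6%), 1367 (27.7%) and 981 (19.8%) bins. By gene, 401 of 1343 genes (29.9%) stayed below 10% in all 4 libraries and 494 (36.8%) were at 80% or above in all of them.

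**Figure D1:**
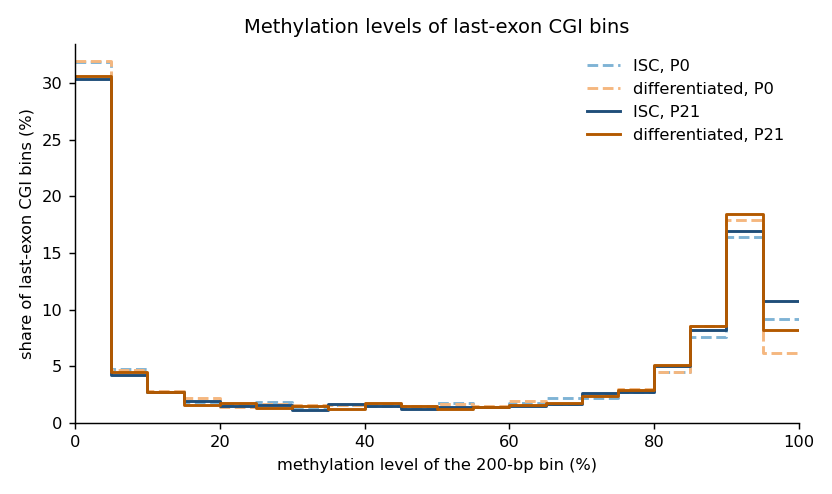
Share of the 4944 last-exon CGI bins (%, y axis) in each 5-point class of methylation level (%, x axis), with 1 line per library. The lowest class, 0 to 5%, held 31.9% of bins in both P0 libraries and 30.4% and 30.6% in ISCs and differentiated cells at P21. The highest class, 95 to 100%, went from 9.12% of bins at P0 to 10.7% at P21 in ISCs and from 6.13% to 8.23% in differentiated cells.

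Last-exon islands were more methylated than CGIs of gene 5′ regions and less than CGIs outside genes. Genes are here protein-coding genes, each taken by its transcript with the longest coding sequence. CGIs outside genes may thus lie in genes of other kinds or in other transcripts. In ISCs at P0, 48629 CGI bins of 5′ regions had a mean level of 5.16%. The 48725 CGI bins elsewhere in gene bodies had 27.7%, and the 48457 outside genes had 60.1%. The mean of all tested bins was 77.01%.

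Mean methylation of last-exon CGIs was higher at P21 than at P0 in both populations. The mean change was 2.39 points in ISCs and 2.34 points in differentiated cells. With all calls of the members pooled, so that deep bins weigh more, it was 0.849 points in ISCs and 1.61 points in differentiated cells, so that both its size and the near equality of the populations depended on the averaging. It was positive on 19 of 19 autosomes in both (SD over autosomes 1.199 and 0.903 points, a description of their spread). Over all tested bins the mean change went the other way, with -0.271 points in ISCs and -0.723 points in differentiated cells. In ISCs the other CGI bins changed by 0.855 points in gene bodies, 0.356 points in 5′ regions and 0.690 points outside genes.

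A bin was called where Fisher's exact test on the calls of 2 libraries gave an adjusted p below 0.05 over all tested bins and the levels differed by more than 15 points. In ISCs 306 last-exon CGI bins were called as gains, or 6.19% (exact 95% interval 5.53 to 6.90%), where 1.07% of all tested bins were. Losses numbered 54, or 1.09%, against 1.48% of all tested bins. Gains thus made up 85.0% of the 360 called members (80.9 to 88.5%), and 42.1% of calls over all bins. In differentiated cells 272 bins were called as gains, or 5.50% (4.88 to 6.17%), where 0.992% of all tested bins were. The 40 losses were 0.809% of members, against 1.86% of all bins. Of called members in differentiated cells, 87.2% were gains. In ISCs 1.84% of other gene body CGI bins, 0.660% of 5′ CGI bins and 1.13% of CGI bins outside genes were called as gains. In the same order 0.466%, 0.226% and 0.413% were called as losses, so that members held more losses than other CGI bins. Of their called bins 79.8%, 74.5% and 73.3% were gains, so that gains outnumbered losses in every CGI class. In differentiated cells losses were 0.384%, 0.236% and 0.310% of these classes, again below the share in members. These intervals take bins as independent, which neighbouring bins of a gene are not.

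Depth entered these shares, since a deep bin is called more easily. With every library thinned to 40 calls per bin, an alternative added after the data had been seen, 64 of 4746 member bins were called as gains in ISCs, or 1.35% (1.04 to 1.72%). The share was 0.210% over all bins, 0.312% in gene body CGIs, 0.0826% in 5′ CGIs and 0.182% outside genes. In differentiated cells it was 0.906% of members and 0.118% of all bins. Without any test, differences above 15 points upward were seen in 7.79% of members and 6.31% of all bins in ISCs, and in 6.07% and 4.92% in differentiated cells. Members were deeper than other bins here too, with a median of 181 against 55 calls in ISCs at P0.

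Starting level went with change. To keep counting error of the P0 library out of the grouping, bins were grouped by the level of the other population at P0. Of 1054 member bins between 20% and 80% in differentiated cells at P0, 216 were called as gains in ISCs, or 20.5% (18.1 to 23.1%), and 42 as losses (3.98%). The share of gains was 27.7% for 20 to 40% and 26.3% for 40 to 60%. It was 0.887% for bins below 5% and 0.168% for bins at 90% or above. At the same starting level, 20 to 80%, gains were 12.2% of other gene body CGI bins, 7.70% of 5′ CGI bins, 6.29% of CGI bins outside genes and 2.46% of bins outside CGIs. In differentiated cells, grouped by ISCs, the shares were 19.4% in last exons, 11.4% in gene bodies, 6.88% in 5′ regions and 5.17% outside genes. Thinned to 40 calls, the share from 20 to 80% was 3.40% in last exons (2.36 to 4.71%) and 2.16% in gene bodies (1.73 to 2.67%) in ISCs, so that these intervals overlapped. In differentiated cells it was 2.71% in last exons (1.79 to 3.91%) and 1.34% in gene bodies (1.01 to 1.75%), and these intervals did not overlap. In ISCs it was 1.07% in 5′ regions and 1.10% outside genes, below the interval for last exons.

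**Figure D2:**
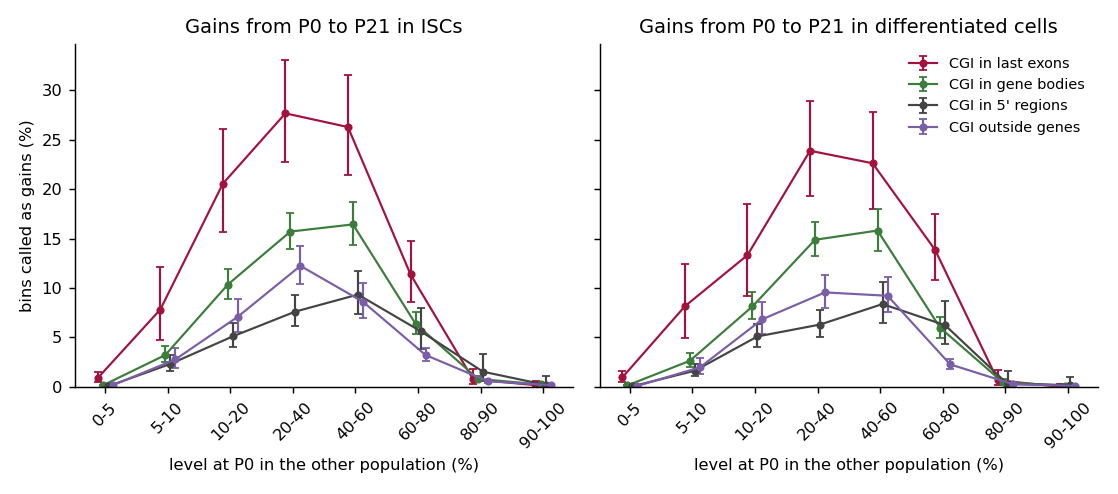
Share of bins called as gains from P0 to P21 (%, y axis) by methylation level at P0 in the other population (%, x axis), in ISCs (left) and differentiated cells (right), for 4 classes of CGI bins. Points are shares, bars are exact 95% binomial intervals, and the share in last exons peaks at 27.7% in ISCs for bins at 20 to 40%.

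The gains of the 2 populations fell largely on shared bins. Their libraries are separate, but the files and labels do not say whether both populations of an age came from the same mice. Of 306 gains in ISCs, 184 were also called as gains in differentiated cells, which is 60.1% of the gains in ISCs (54.4 to 65.7%) and 67.6% of those in differentiated cells. None of the 306 was called as a loss there, and 283 (92.5%) had a positive change in differentiated cells, as had 62.5% of all members. Of the 54 losses in ISCs, 19 (35.2%) were called as losses in differentiated cells, 1 was called as a gain and 46 (85.2%) had a negative change, as had 36.8% of all members. Over all tested bins 23.8% of gains in ISCs were called as gains in differentiated cells, below the share in members, and 45.4% of losses were called as losses, above it. For gains the share was 50.5% for gene body CGIs, 45.2% for 5′ CGIs and 31.0% for CGIs outside genes. Members were the deeper bins in differentiated cells, with a median of 499 against 81 calls at P0 and 391.5 against 68 at P21. These shares were not compared at equal depth. A positive change in differentiated cells was seen in 90.6% of gains in gene body CGIs, 93.5% in 5′ CGIs, 84.5% in CGIs outside genes and 78.7% over all tested bins. By gene, 164 genes (12.2%) held a gain in ISCs, 135 in differentiated cells and 99 in both. Losses were held by 44 and 33 genes, 19 of them in both. Across the 1343 genes the pooled changes in the 2 populations had a Pearson's r of 0.745 and a Spearman's rho of 0.487. Genes are not independent replicates, and most of them stand near 0 in both.

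**Figure D3:**
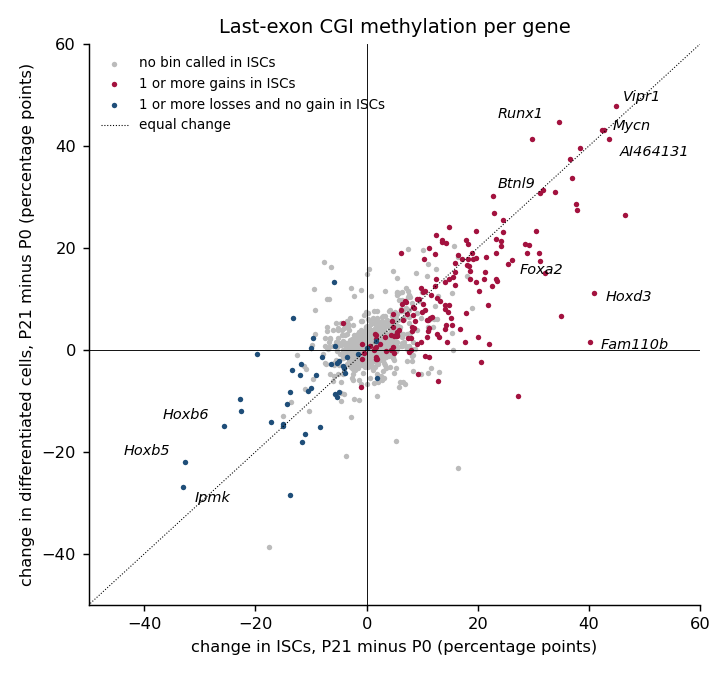
Change in pooled last-exon CGI methylation from P0 to P21 in ISCs (x axis) and differentiated cells (y axis), in percentage points, with 1 point for each of 1343 genes. Colours mark genes with a gain called in ISCs (164), with losses and no gain, and with no call, and the dotted line marks equal change, near which Vipr1, Mycn and AI464131 stand while Hoxd3 and Fam110b stand below it.

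Most runs of called bins in ISCs were single bins, and some gains ran along an island. The called bins of ISCs formed 174 runs of gains and 44 runs of losses, where a run is a set of adjacent called bins in 1 direction. Of these 218 runs, 146 were single bins and 32 held 3 or more. Of the genes, 69 held gains in 2 or more bins, and 22 with 2 or more member bins had a gain in each of them. The longest run covered 12 bins of Zfp316, a zinc finger gene, at chr5:144014801-144017200. The next covered 11 bins of AI464131 at chr4:41444601-41446800. No run of losses was longer than 3 bins.

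Zfp316 had 12 member bins, all coding and all called as gains in ISCs, of which 8 were called in differentiated cells. Its pooled level went from 30.8% to 59.7% in ISCs and from 35.5% to 54.5% in differentiated cells. Within the island the start differed widely: the bin at 144015401, with 40 CpGs, went from 0.355% to 20.3% in ISCs, and the bin at 144016401 from 72.5% to 92.8%. Unmethylated and methylated stretches of 1 exon thus rose side by side.

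AI464131 held 12 member bins at chr4:41444401-41446800, and 11 were called as gains in each population. The last exon is 4087 bp long, and these bins cover its 5′ part. Pooled over the 12 bins, the level went from 25.1% to 68.7% in ISCs and from 27.7% to 68.9% in differentiated cells. In ISCs its bins ranged from 7.57% to 80.8% at P0 and from 46.7% to 98.8% at P21, so that no bin stayed low. The bin at 41444401, in the 3′ UTR, missed the call in ISCs (42.2% and 53.6%, adjusted p = 0.477 by Fisher's exact test) and passed it in differentiated cells (33.5% and 49%).

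Most genes of the glycosylation list add, trim or sulfate the sugar chains of proteins, lipids and proteoglycans, which make up much of the mucus and cell surface of the colon. The list was matched by symbol, and 3 of its genes are of another kind: Gltscr1, a chromatin factor, Gltpd2, a gene with a glycolipid transfer domain, and Phospho1. Of 31 with member bins, 6 (19.4%) held gains in ISCs and none a loss, and 5 (16.1%) held gains in differentiated cells, where 12.2% of all member genes held a gain and 3.28% a loss in ISCs and 10.1% a gain in differentiated cells. Without these 3 genes, 5 of 28 held gains in ISCs and 4 in differentiated cells, with a median change of 2.37 points in ISCs. Over the 31 the median change per gene in ISCs was 2.41 points, against 0.688 points for all 1343 genes, from a median level of 58.6% against 50.6%. The study chose some of these genes on the same libraries, so the count is no independent evidence of its direction. Gal3st1, the sulfotransferase that makes sulfatide, went from 48.9% to 80.1% in ISCs and from 49% to 79.8% in differentiated cells over 6 bins at chr11:3898001-3899200, with 4 and 5 bins called. Chst8, a sulfotransferase acting on N-acetylgalactosamine, went from 17.95% to 39.1% and from 21.1% to 34.99%, with 4 and 3 of its 7 bins called. A3galt2, a galactosyltransferase of glycolipid synthesis, had no call: it stood at 83.9% and 83.3% in ISCs and 84.1% and 83.0% in differentiated cells. Phospho1, a phosphatase of phosphocholine and phosphoethanolamine, had 1 gain among 6 bins in ISCs (8.20% and 27.1% in that bin), and its pooled level was 6.79% at P0 and 12.2% at P21. Some of its last exon overlaps that of Abi3.

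Among receptors, Vipr1 had one of the largest rises. It encodes a receptor of vasoactive intestinal peptide, a G protein-coupled receptor known for its part in intestinal secretion. Its 4 bins at chr9:121578401-121579200 started from 26.3% in ISCs and from 23.4% in differentiated cells. At P21 both populations stood at 71.2%, and all 4 bins were called in both. The steepest bin, in the 3′ UTR at 121578601, went from 16.98% to 79.7% in ISCs and from 18.8% to 75.0% in differentiated cells. Of 50 genes matched as G protein-coupled receptors, which include Gprin1 by its symbol alone, 8 held gains and 4 losses in ISCs, and 7 and 3 in differentiated cells, with a median change of 0.594 points in ISCs against 0.688 points for all 1343 genes. These are 16.0% and 8.0% of the list in ISCs and 14.0% and 6.0% in differentiated cells, where 12.2% and 3.28% of all member genes held a gain or a loss in ISCs and 10.1% and 2.46% in differentiated cells. Lpar5, a receptor of lysophosphatidic acid, went from 21.6% to 45.7% in ISCs and from 22.2% to 42.6% in differentiated cells, with 4 and 3 of 5 bins called. Gpr124, an adhesion receptor, went from 54.0% to 70.5% and from 51.8% to 70.4%, with 2 and 4 of 7 bins called.

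Nr1d1 and Thra overlap at their 3′ ends on opposite strands and share member bins, so that their rise is 1 observation. Nr1d1 encodes the clock repressor REV-ERBα and Thra the thyroid hormone receptor α. The shared bin at chr11:98629401-98629600 went from 27.0% to 79.7% in ISCs and from 32.3% to 74.1% in differentiated cells. The shared bin beside it went from 28.9% to 66.8% and from 22.6% to 68.9%. The bin that only Thra holds, at chr11:98629801-98630000, rose from 19.8% to 42.2% and from 19.7% to 46.9%. The bin that only Nr1d1 holds had 19 to 52 calls per library and missed the test, with 36.8% and 53.6% in ISCs and 41.4% and 59.6% in differentiated cells.

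Mycn had 4 member bins at chr12:12943601-12944400. It went from 38.6% to 80.9% in ISCs and from 37.7% to 80.7% in differentiated cells, with 3 and 4 bins called. Runx1, at chr16:92605601-92606400, held 3 coding bins that rose from between 0 and 10.3% to between 51.9% and 63.4% in ISCs. In differentiated cells the same bins rose from between 1.32% and 11.7% to between 46.9% and 63.3%. Its remaining bin, in the 3′ UTR, was methylated from the start and had no call (85.7% and 95.7% in ISCs). The pooled levels of Runx1 at P0, 27.2% in ISCs and 8.94% in differentiated cells, hold 182 and 94 calls of this bin, while each of its coding bins had 107 to 244 calls in ISCs and 334 to 682 in differentiated cells.

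Kdm6b, which encodes a demethylase of histone H3 lysine 27, had 3 member bins at chr11:69212801-69213400, all in the 3′ UTR. All of them were called in both populations, and the pooled level went from 45.7% to 82.6% in ISCs and from 47.0% to 80.8% in differentiated cells. Btnl9, a butyrophilin-like gene of the immunoglobulin superfamily, had 3 coding bins at chr11:48982601-48983200 that started low, between 2.37% and 13.01% in ISCs: pooled, it went from 8.0% to 41.9% in ISCs and from 10.1% to 41.1% in differentiated cells. All 3 bins were called in both.

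**Figure D4:**
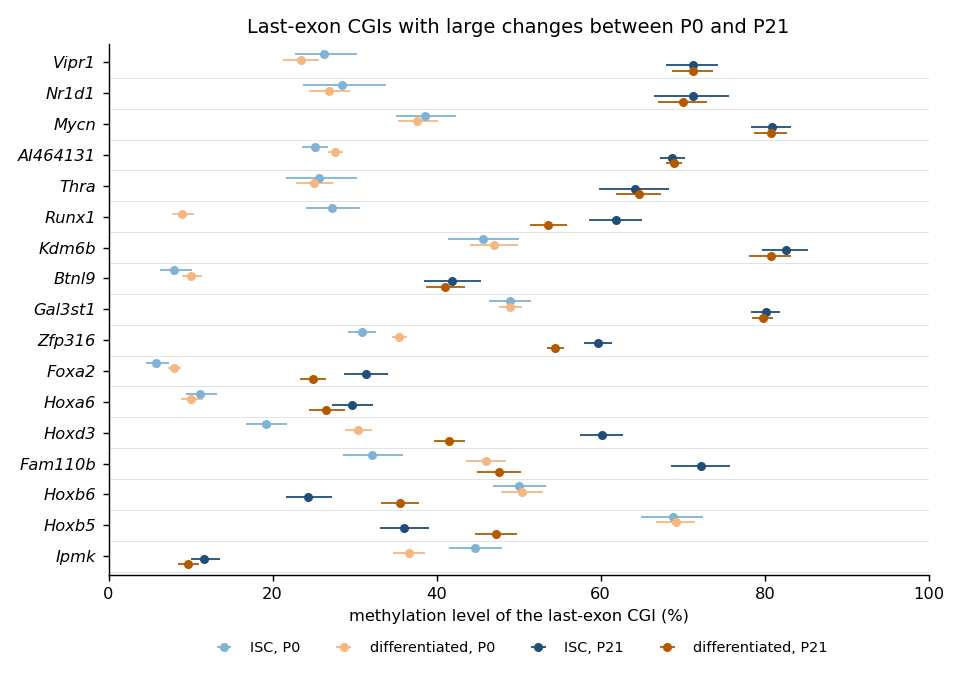
Pooled methylation level (%, x axis) of the last-exon CGIs of 17 named genes (y axis) in each of the 4 libraries; points are levels and bars are 95% Wilson intervals for counting error. Genes from Vipr1 to Fam110b were higher at P21 in ISCs, and Hoxb6, Hoxb5 and Ipmk were lower.

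Transcription factors of development had mostly unmethylated last-exon islands. The median level at P0 in ISCs was 1.87% for 94 homeobox gene records and 3.23% for 76 records of a second list of developmental transcription factors, against 50.6% for all member genes. Gsx2 stands in the first list under 2 gene IDs with the same bins, and Barhl1 and Barhl2, which are homeobox genes, stand in both. With these counted once and as homeobox genes the medians were 1.91% over 93 and 4.55% over 74, and the counts of genes with calls were the same. Of the homeobox records 8 held gains and 3 losses in ISCs (8 and 2 in differentiated cells), with a median change of 0.509 points. Of the second list 9 held gains and none a loss in ISCs (6 and 2 in differentiated cells), with a median change of 0.486 points. Over all member genes 12.2% held a gain and 3.28% a loss in ISCs, against 8.51% and 3.19% of the homeobox records and 11.8% and 0 of the second list, so that most genes of these lists, as of all members, had no call. Tbx3, a T-box factor, went from 32.0% to 63.0% in ISCs and from 36.5% to 55.4% in differentiated cells, with all 3 bins called in both. Foxa2, a pioneer factor of endoderm, had 6 coding bins at chr2:147869401-147870600. Its 4 called bins ran from 2.93% to 23.1% in ISCs at P0 and from 39.7% to 68.1% at P21. The other pair of bins, next to them, stood at 2.76% and 0 at P0 and at 8.98% and 1.53% at P21. Mnx1, a homeobox factor of pancreas and motor neurons, went from 42.5% to 74.5% in ISCs and from 49.9% to 65.0% in differentiated cells.

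Hox genes set positional identity along the body axis, and calls among them went in both directions. There were 21 Hox gene records among the members, of which 5 held gains and 2 losses in ISCs, and 4 and 2 in differentiated cells, where 12.2% and 3.28% of all member genes did in ISCs and 10.1% and 2.46% in differentiated cells. The other 14 had no call in ISCs. Hoxa6 went from 11.2% to 29.7% in ISCs and from 10.1% to 26.6% in differentiated cells over 5 bins, 3 of which were called in each population. Hoxb5 went the other way: its 3 bins at chr11:96166201-96166800 went from 68.8% to 36.0% in ISCs and from 69.2% to 47.2% in differentiated cells, with 2 bins called in each. Its neighbour Hoxb6, at chr11:96162001-96162600, went from 50.1% to 24.3% and from 50.4% to 35.5%, with 3 and 2 bins called. Further along the same cluster Hoxb2 held 4 gains among 9 bins in ISCs (8.48% and 20.3% pooled) and Hoxb3 held 1 among 5 (42.7% and 51.8%). Hoxb4, between Hoxb5 and Hoxb3, had no call, with 14.9% and 2.39% in ISCs and 5.81% and 4.89% in differentiated cells. In the HoxC cluster 6 genes had member bins and none had a call; their levels lay between 0.312% and 5.94% in all libraries.

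Losses were fewer than gains, with a median change of -23.8 points over the 54 bins against 24.2 points over the 306 gains in ISCs. Pooled by gene, 2 genes were more than 30 points lower at P21 in ISCs, against 21 that were more than 30 points higher. More than 15 points in both populations separated 50 genes upward and 3 downward. Ipmk, an inositol polyphosphate kinase, went from 44.7% to 11.7% in ISCs and from 36.6% to 9.69% in differentiated cells over 4 bins at chr10:70844001-70844800, with 3 and 2 bins called. Its middle coding bin at 70844201 fell from 54.6% to 13.5% in ISCs and from 46.4% to 12.5% in differentiated cells. Adat3, the partner subunit of a tRNA adenosine deaminase, had 2 losses among 6 coding bins in ISCs: 41.5% to 16.9% and 45.6% to 19.3%. Between them stood a bin at 3.52% and 0.794%, and the 3 bins downstream stayed at 87.4% or above in ISCs. The uncharacterised gene 2700081O15Rik lost and gained in 1 exon. Its first bin rose from 59.0% to 77.6% in ISCs, and 2 bins farther on, in the 3′ UTR, fell from 26.6% to 7.004% and from 73.8% to 53.7%. Its pooled level was 37.1% and 36.7%, which hides both. Notch2, a receptor of the Notch pathway, fell in 1 of 3 coding bins, from 79.7% to 39.2% in ISCs and from 81.2% to 61.5% in differentiated cells.

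The remaining lists are given by their counts and medians, to be read against a median change of 0.688 points in ISCs for all 1343 genes. A list of 97 zinc finger genes, matched by symbol, is mostly of C2H2 type, in which the last exon often holds the fingers, and includes Zfp36, Zfp36l1 and Zfp36l2, which are of CCCH type. Of the 97, 11 held gains and 2 losses in ISCs, and 10 and 1 in differentiated cells, and all of these were among the 94 others. Their median level was 89.7% at P0 and their median change 1.2 points. Zfp467 rose in 2 of 7 bins, from 61.3% to 82.3% and from 74.9% to 94.4% in ISCs, and Zfp653 fell in 1 of 2 bins, from 34.3% to 10.5%. Of 54 genes matched as developmental signalling genes, which include Bmp2k and Tgfb1i1 by their symbols alone, 10 held gains and 1 a loss in ISCs, and 7 and 1 in differentiated cells, with a median change of 1.17 points. Sema4a, a semaphorin, went from 39.2% to 69.7% in ISCs and from 42.7% to 65.9% in differentiated cells, and Fgf17, a fibroblast growth factor, from 10.5% to 22.8% and from 9.99% to 28.8%. Of 52 ion channel genes, 3 held gains and 2 losses in ISCs and 2 and 1 in differentiated cells, with a median change of 0.407 points. The calcium channel subunit gene Cacna2d2 went from 29.0% to 52.3% and from 24.5% to 46.2%. The pannexin gene Panx2 had 1 loss among 3 bins in ISCs (47.9% and 19.8%). Of 20 solute carrier and pump genes, none held a gain and 1 a loss in ISCs, and 1 and 3 in differentiated cells, with a median change of 0.262 points. The loss was in Slc25a29, a mitochondrial amino acid carrier, in 1 bin that went from 94.1% to 66.7% in ISCs and from 93.2% to 77.6% in differentiated cells. Over all member genes 12.2% held a gain and 3.28% a loss in ISCs, and 10.1% and 2.46% in differentiated cells.

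Gains were called in coding sequence, in 3′ UTRs and in 5′ UTRs. Of 51 member bins in 5′ UTRs, 4 (7.84%, 2.18 to 18.9%) were called as gains in ISCs. Coding bins numbered 3625, with a mean level of 50.6% in ISCs at P0, and 6.23% of them were called as gains in ISCs (5.47 to 7.07%). The 1268 bins of 3′ UTRs had a mean of 37.2%, and 5.99% were called (4.75 to 7.44%), so that the intervals overlapped. The starting levels differed, however. Among bins that started between 20% and 80%, 166 of 742 coding bins (22.4%, 19.4 to 25.5%) and 47 of 301 bins of 3′ UTRs (15.6%, 11.7 to 20.2%) were called, and these intervals overlapped at their ends. Bins of 3′ UTRs were also the shallower, with a median of 122 against 198 calls in ISCs at P0. By density, 910 bins with 18 or more CpGs had a mean of 14.3% at P0 and 7.69% of them were gains, while 2605 bins with under 12 CpGs had a mean of 58.6% and 4.68% were. Of bins that started between 20% and 80%, 42.1% of those with 18 or more CpGs, 26.9% of those with 12 to 17 and 13.6% of those with fewer were called. More CpGs in a bin also mean more calls and thus easier calling, and their part in this was not tested. By size of the island, 4.34% of bins in CGIs under 800 bp, 6.25% in CGIs from 800 to under 1500 bp and 7.59% in CGIs of 1500 bp or more were gains, and mean levels were 69.8%, 47.5% and 27.7%.

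The rule left out the 5′ regions of the transcript chosen for each protein-coding gene and used no other distance to a transcript start. Distances here are to the nearest start of any annotated transcript, those of the gene itself included, so this exclusion shapes the classes. Of 318 bins within 500 bp of the start of any annotated transcript, 8.81% were called as gains in ISCs. The share was 9.11% for 1153 bins at over 500 and up to 2000 bp and 4.98% for 3473 bins farther away. The mean levels of the 3 classes were 30.4%, 29.4% and 54.2%. In 545 bins the island reached into a 5′ region, and there the mean level was 15.2% and 6.61% were gains. The rule needs 100 bp of a bin in a CGI. The 368 members with 100 to under 150 bp had a mean level of 60.2% and 10 gains (2.72%), and 329 last-exon bins just outside the rule, with 50 to 99 bp, had 66.8% and 11 gains (3.34%). Last-exon bins with no CGI in them, 64731 in number, had a mean of 81.4%, a change of 0.198 points in ISCs and 1.28% gains.

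In genes with gains the change peaked within the last exon in both populations and did not decline evenly from there. The 3 genes with both a gain and a loss in ISCs are left out here. In genes with a gain and no loss in ISCs, mean methylation was 12.8 to 13.5 points higher at P21 in the first 3 of 10 equal parts of the last exon. It was 5.51 to 6.36 points higher in the last 3. These genes were chosen by the same ISC libraries for a gain in the last exon, so those values are a description. The first 3 parts held values of 112 to 125 genes and the last 3 of 83 to 89, so that the genes differ along the exon. In differentiated cells the same 3 parts were 9.89 to 11.4 points higher and the last 3 were 2.01 to 4.33 points higher. Their libraries did not enter the choice, but gains of the 2 populations fell largely on shared bins. A peak inside the exon is thus no separate support. In the 400 bp upstream of the exon the changes were 6.51 and 6.39 points, and from 4000 to 3600 bp upstream 1.36 and 1.38 points. Downstream they were 2.76 and 2.88 points in the first 400 bp and 4.18 and 1.79 points in the next 400 bp, and from 2400 to 2800 bp they were 3.44 and 0.993 points. In genes with no call in ISCs the changes in ISCs lay between -0.573 and 1.44 points at every place.

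**Figure D5:**
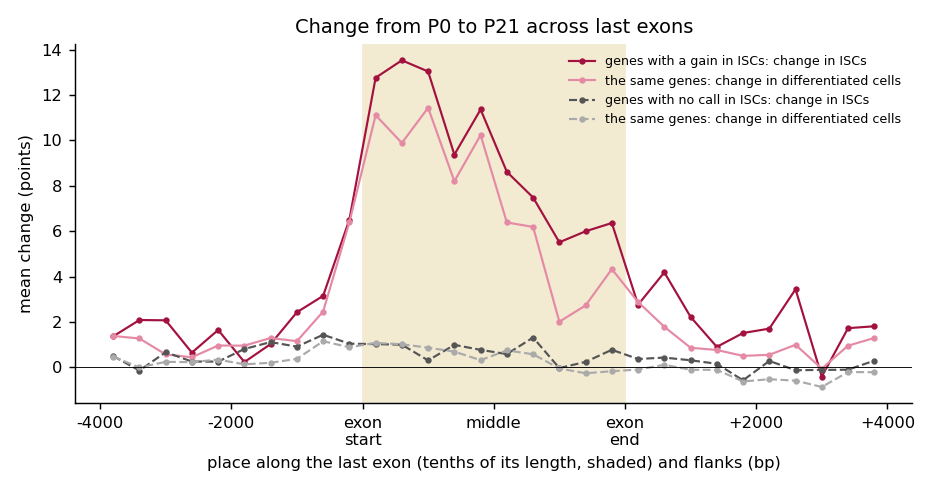
Mean change in methylation from P0 to P21 (percentage points, y axis) along the last exon, in 10 equal parts (shaded), and in 400-bp steps of the flanks (bp, x axis). Lines show genes with a gain and no loss in ISCs (solid, chosen by their ISC calls) and genes with no ISC call (dashed), each in ISCs and in differentiated cells. In ISCs the change in the gain genes is largest in the first 3 parts, at 12.8 to 13.5 points.

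The 5′ CGIs of genes with a gain in the last exon moved little. Of the 164 genes with a gain in the last exon in ISCs, 123 had CGI bins in the 5′ region. There the median gene level was 0.905% at P0 and 1.26% at P21 in ISCs, and 8 of 559 bins (1.43%), in 5 genes, were called as gains. Elsewhere in the body of these genes 66 of 788 CGI bins (8.38%), in 33 of 140 genes, were called as gains. In genes with no call in the last exon the shares were 0.745% for 5′ regions and 1.87% for gene bodies. Starting levels differed too: the median gene level of gene body CGIs in ISCs at P0 was 13.1% in genes with a gain and 6.57% in genes with no call. The genes were grouped by calls of the same ISC libraries, so these shares are a description.

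Differences between differentiated cells and ISCs of the same age were rare. At P0, 21 member bins were higher in differentiated cells and 34 lower, or 0.425% and 0.688%, where 0.288% and 0.22% of all tested bins were. At P21, 4 were higher and 29 lower, or 0.0809% and 0.587%, where 0.0711% and 0.111% of all bins were. With bins shifted by 100 bp, 13 were higher and 30 lower at P21. Members were the deeper bins, and these calls depended on depth. With the calls of each bin thinned to its lowest library, 8 members were higher and 17 lower at P0, and 5 and 12 at P21. Thinned to 40 calls in every library, 0 were called in either direction at either age, so the shares of members and of all bins cannot be compared at equal depth. They lay in 48 genes at P0 and 27 at P21. Averaged over members, differentiated cells differed from ISCs by -0.444 points (P0) and -0.496 points (P21). With all calls pooled these differences were -3.08 and -2.32 points. Of the bins called at P0, 1 higher and 1 lower bin were called in the same direction at P21, and 1 bin that was higher at P0 was called as lower at P21. The first lies in Hoxb5, in the 3′ UTR at chr11:96166601-96166800, and went from 59.5% to 28.6% in ISCs and from 95% to 78.8% in differentiated cells, from 37 to 52 calls per library. The second lies in Zfp503, a zinc finger repressor of development, at chr14:22804201-22804400, with 71.5% and 55.7% at P0 and 86.7% and 69.4% at P21.

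The change with age itself differed between the populations in few bins. The difference of the 2 changes was called, by a normal test adjusted over all tested bins and with more than 15 points, in 30 members where differentiated cells changed more positively and 41 where they changed more negatively. These are 0.607% and 0.829% of members, against 0.154% and 0.235% of all tested bins, which were shallower. Thinned to the lowest library of each bin the counts were 14 and 16, and thinned to 40 calls they were 0 and 0. In Hoxd3, 5 of 6 bins at chr2:74584401-74585600 rose in ISCs and none was called in differentiated cells, and the difference of the changes was called in 4 bins. Its pooled level went from 19.1% to 60.1% in ISCs and from 30.5% to 41.6% in differentiated cells, so that ISCs were the lower population at P0 and the higher at P21. Fam110b, at chr4:5725601-5726200, went from 32.1% to 72.3% in ISCs and stood at 46.0% and 47.6% in differentiated cells. Its bin at 5725601 lay in the 5′ UTR. Oprd1, the δ opioid receptor gene, had a coding bin at 131669601 on chromosome 4 that fell from 71.9% to 48.0% in ISCs and rose from 43.9% to 60.99% in differentiated cells; both changes were called.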

How the data were processed

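Bisulfite libraries of the 4 groups were sequenced as paired ends after PCR. The deposited files give, per CpG, the counts of all calls and of methylated calls, and the authors' methylation fraction, which equals their ratio. Per the labels the authors mapped reads to mm9 with Bismark and Bowtie. Their versions and any removal of duplicate reads are not given in the sources used. Calls on 1 read or on copies of 1 molecule are not independent, while the tests and intervals take each call as independent. Where such calls occur, p-values are too small and intervals too narrow even for counting error, and by how much was not tested. No position lay past the end of an mm9 chromosome, and 0.465 to 0.850% of positions per file that were no CpG of the reference were not used. Calls of the 2 strands of a CpG were added up, and bins were 200 bp with 2 or more CpGs and 10 or more calls in each library. Levels are methylated counts over all counts.

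Genes came from GENCODE M1, using the transcript with the longest coding sequence. Tests (Fisher's exact test, Benjamini-Hochberg over 4076371 bins; a normal test with 1 call added per state for the difference of 2 changes) used Python 3.11.15 with NumPy 2.4.6, pandas 2.3.3, SciPy 1.17.1 and Numba 0.67.0, were checked on simulated counts, and figures used Matplotlib 3.10.9. Alternatives varied the minimum of calls, the difference, the test, depth, the island definition, the bin start, the transcript starts and the averaging.

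The members, the 8 gene lists and the tests were chosen with earlier results of these data known. Genes were named by rule: the 10 largest rises and 5 largest falls ranked by the smaller of the changes in the 2 populations, among genes with 2 or more bins called in ISCs and 1 in differentiated cells; the 3 largest per list; genes the study named; up to 5 genes with the largest difference between populations in the change with age or with a bin called between them at both ages; and the 3 longest runs. Other Hox genes, Abi3 and list members that match by symbol alone were named after their values were seen, and the lists without the latter are an added alternative. The 36 genes of chromosome 18 (120 bins, 10 gains in ISCs) were counted and not named, and 2 genes and 1 sequence are not reported here.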

Additional observations from a re-analysis of the deposited data

Results flagged for a closer look

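In 13 named genes the change from P0 to P21 differed between the populations in at least 1 bin. The call was by the normal test of the difference of the changes, adjusted over all tested bins. Such bins were 1.44% of members, which were the deeper bins, and 0.390% of all tested bins. As given above, these calls did not survive thinning of every library to 40 calls, where the test has less power. Flg, Fam110b, 5430407P10Rik, Oprd1 and Hoxd3 were named for the largest such differences, so their values are no separate support. Values are the change in differentiated cells minus that in ISCs, for the bin with the largest difference of each gene. They cover counting error of 4 libraries. The difference was 58.1 points in Flg, the filaggrin gene, where a coding bin at chr3:93085001-93085200 stood at 100.0% in ISCs at P0 and 44.4% at P21, from 43 and 27 calls, while differentiated cells stood at 94.7% and 97.3%. None of the 14 CpGs of this bin had 5 or more calls in every library. The other 10 member bins of Flg stood at 78.6% or above in all libraries. In Oprd1 the difference was 41.0 points.

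In Fam110b it was -44.0 points, in a bin that went from 35.7% to 72.2% in ISCs and from 51.3% to 43.8% in differentiated cells. In the uncharacterised gene 5430407P10Rik it was -42.3 points, in a 3′ UTR bin with 75 to 213 calls per library, while 5 of its 7 bins were called as gains in ISCs and 3 in differentiated cells. In Hoxd3 it was -39.9 points, in a coding bin that went from 6.29% to 57.1% in ISCs and from 16.6% to 27.6% in differentiated cells.

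Smaller differences of negative sign were -26.9 points in Tbx3, -24.2 points in Zfp316, -23.7 points in Hoxa6, -19.2 points in Mnx1 and -16.1 points in Foxa2, where the changes in ISCs were the more positive. Those of positive sign were 27.0 points in Hoxb6, 20.8 points in Notch2 and 15.6 points in Hoxb5, where the losses in ISCs were the larger. In each of these 8 genes the pooled level moved in the same direction in both populations.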

How the results depend on the processing

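No change larger than its counting interval changed sign under any alternative that was run. Within a population no pairing of replicates was possible because each group has 1 library, and for the same reason no library could be left out. A fit of age over both populations with the population as a block was not run. With a difference of 30 points the counts were 105 gains and 11 losses in ISCs, 69 and 5 in differentiated cells, 1 and 0 bins higher and lower in differentiated cells at P0, 2 and 1 at P21, and 4 and 8 for the difference between the changes; 50.5% of gains in ISCs were then gains in differentiated cells. Without a test the losses in ISCs numbered 90, the bins higher and lower in differentiated cells 43 and 69 at P0 and 40 and 67 at P21, and the differences between changes 122 and 132, and 53.2% of gains were shared. With the calls of each bin thinned to the lowest of the 4 libraries, 8 and 17 bins were called at P0, 12 were lower at P21, and 14 and 16 differed in their change. With islands of 35 or more CpGs, which left 2174 bins, there were 183 gains and 15 losses in ISCs, 167 and 5 in differentiated cells, 10 and 19 at P0, 0 and 14 at P21, and 16 and 21 for the difference between changes. A minimum of 40 calls left 2 bins higher at P21, and bins shifted by 100 bp gave 13. Thinned to 40 calls in every library, an alternative chosen after seeing the data, 64 gains and 6 losses were called in ISCs and 43 and 3 in differentiated cells, 3.40% of bins between 20% and 80% were gains in ISCs, and 0 bins were called between populations in either direction at P0, at P21 or for the change; fewer calls leave the test less power, so the latter counts show what this depth limits.

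The mean levels in the order ISC P0, differentiated P0, ISC P21 and differentiated P21 were 47.5%, 44.4%, 48.4% and 46.0% with all calls pooled, with changes of 0.849 points in ISCs and 1.61 points in differentiated cells and differences of -3.08 points at P0 and -2.32 points at P21 between the populations. They were 48.6%, 48.2%, 50.8% and 50.2% as means over genes, with changes of 2.20 and 2.02 points. With 40 or more calls they were 47.1%, 46.7%, 49.5% and 49.02%. With islands of 35 or more CpGs they were 24.4%, 23.9%, 27.6% and 27.2%, with changes of 3.22 and 3.25 points. With bins shifted by 100 bp they were 47.4%, 47.1%, 49.8% and 49.3%, with a difference of -0.334 points at P0. The genes with a gain in ISCs in 2 or more bins numbered 69. Of the values of summary results under an alternative, 77 moved, by over 1.5 times for counts and otherwise by more than their counting interval, and 77 did not. For the changes of single named genes, 40 moved by more than their counting interval and 120 did not.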
